A study of Homo sapiens with 6 samples.

Results

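The let-7 family guide arms are the 5p strands of the let-7 hairpins and of mir-98. They were taken by name from the 6 count files, and all 9 listed names were found among 28846 small RNA entries, of which 2596 are microRNAs. K562 is a human erythroleukemia cell line that can be driven towards the erythroid or the megakaryocytic lineage. Small RNA was sequenced from K562 cells transduced with the lentiviral vector SIEW expressing GFP alone (control) or with SIEW RUNX1 expressing human RUNX1 and GFP, so cells of both groups carried a vector and GFP. Each group holds 3 samples from independent transductions, numbered 1 to 3, and RNA was harvested after 10 days in culture. The comparison asks whether over-expression of RUNX1, a transcription factor of megakaryocytic differentiation, changed the level of these microRNAs.

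The let-7 microRNAs are among the most conserved animal microRNAs and were found as regulators of developmental timing. A guide arm is the strand of a hairpin that is kept in the Argonaute complex, where its seed (bases 2 to 8 from the 5′ end) pairs with target mRNAs, while the other arm is usually degraded. The family accumulates in differentiated cells and represses transcripts such as those of HMGA2, MYC and RAS genes. The RNA-binding proteins LIN28A and LIN28B block the maturation of most let-7 hairpins, and the switch from fetal to adult erythroid gene expression is a known setting of this LIN28/let-7 axis. These proteins, the target mRNAs and RUNX1 itself were not measured in these libraries.

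The mature sequences are shown because all 9 arms share the seed, given in capitals, and differ from each other by few bases, which bears on how the reads could be assigned. They were matched by name in RefSeq (GRCh38.p14), and the species prefix of the names is left out after this list.
hsa-let-7a-5p: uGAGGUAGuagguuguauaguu
hsa-let-7b-5p: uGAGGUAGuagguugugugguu
hsa-let-7c-5p: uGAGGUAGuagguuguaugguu
hsa-let-7d-5p: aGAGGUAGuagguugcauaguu
hsa-let-7e-5p: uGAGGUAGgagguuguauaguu
hsa-let-7f-5p: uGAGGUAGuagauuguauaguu
hsa-let-7g-5p: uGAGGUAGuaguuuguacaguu
hsa-let-7i-5p: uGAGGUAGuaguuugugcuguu
hsa-miR-98-5p: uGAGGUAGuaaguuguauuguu

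Each of these arms is 22 bases long. Counted from 1 at the 5′ end and written with the base of let-7a-5p first, let-7c-5p differs from let-7a-5p by A19G, let-7e-5p by U9G and let-7f-5p by G12A. For let-7b-5p the differences are A17G and A19G, for let-7d-5p U1A and U16C, for let-7g-5p G12U and U18C, and for miR-98-5p G11A and A19U. let-7i-5p is the most distant from let-7a-5p, with G12U, A17G, U18C and A19U. A read with a sequencing error or an RNA edit can therefore pass from one member to another, and single counts of the less abundant members are uncertain.

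Of the 9 arms, 7 come from 1 hairpin each. let-7a-5p is encoded by 3 hairpins and let-7f-5p by 2. These 5 hairpins are shown with the mature arm in capitals and the neighbouring hairpin bases, up to 4 on each side, in lower case, since only the lower-case bases tell the copies of one arm apart in these windows.
MIRLET7A1: gggaUGAGGUAGUAGGUUGUAUAGUUuuag
MIRLET7A2: agguUGAGGUAGUAGGUUGUAUAGUUuaga
MIRLET7A3: gggUGAGGUAGUAGGUUGUAUAGUUuggg
MIRLET7F1: agagUGAGGUAGUAGAUUGUAUAGUUgugg
MIRLET7F2: gggaUGAGGUAGUAGAUUGUAUAGUUuuag

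A read of the mature arm alone matches each of its hairpins equally well, and how such reads were treated before the counts were made is not given in the sources used here. let-7a-5p, an abundant member in many human tissues, had 207 counts in all 6 samples together, and let-7f-5p had 2058. Of the 2262 microRNA entries whose name was found in the RefSeq table, 160 have a mature sequence found at 2 or more loci, and 1 of these 160 (0.625%) had a mean above 1000 on the counts-per-million (CPM) scale of the library. This was miR-92a-3p, named after its value was seen, with 2 loci, 982584 counts in all and a mean of 25452 CPM of the library. Among the 2102 microRNAs with 1 locus, 43 (2.05%) were above that level. The counts of let-7a-5p and let-7f-5p were compared between groups below. Whether multi-locus reads were lost, and whether this set their rank in the family, was not tested.

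The total counts ranged from 1618248 to 15245007 per sample, and the 9 arms together took from 2425 to 16794 counts. Replicates stood further apart than sampling noise, the chi-square divided by its degrees of freedom being 11.2 to 545, and each counted as 1 sample. All 4 erythroid microRNAs of a fixed list were detected. On a CPM scale adjusted by TMM, explained below, miR-451a had 2903 ± 232 CPM in the controls and 1624 ± 283 CPM with RUNX1 (n = 3 per group, SD). The list had 1 member up-regulated and 3 down-regulated with TMM scaling, where 28.0% and 29.6% of all 947 small RNAs tested were called in these directions. The up-regulated member was miR-144-3p, with 120 ± 14.4 TMM-scaled CPM in the controls and 242 ± 14.8 with RUNX1 (n = 3 per group, SD). Of the erythroid calls, those of miR-144-5p and miR-486-5p were lost in some fits with a replicate left out. Summed, the erythroid list took between 5800.5 and 6230 CPM of the library total in the controls and between 1764 and 3199 with RUNX1. In such bulk samples fewer cells of a type and less RNA per cell cannot be told apart. Of 9 markers of liver, neural, muscle and epithelial cells, miR-124-3p and miR-206 had no counts. The other tissue markers that passed the count filter, 5 in number, were all up-regulated with TMM scaling, as were 28.0% of all small RNAs tested. Their list summed to between 112 and 114 CPM of the library total in the controls and to between 1654 and 1775 with RUNX1, where most of it was miR-143-3p, and its part in the let-7 values was not tested.

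let-7e-5p was the leading member in every sample and let-7g-5p came next. CPM are given here relative to library sizes scaled by TMM, edgeR's scaling, which takes the bulk of the entries as unaltered between libraries. All 9 arms have the same length, so no length correction was made between them. How evenly the library preparation captured each arm was not measured, so the order given here is one of counts. let-7e-5p had 847, 772 and 870 CPM in the controls and 1152, 1049 and 1026 CPM with RUNX1. Its mean over all samples was 6.51 times that of let-7g-5p, which had 154, 147 and 145 CPM in the controls and 132, 139 and 162 CPM with RUNX1. Both are products of single hairpins.

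Below these, miR-98-5p had 49.4 ± 6.47 CPM and let-7f-5p 41.9 ± 3.45 CPM in control samples (SD, n = 3 per group). These neighbours could not be ordered, since the count of miR-98-5p exceeded that of let-7f-5p in 4 of 6 samples and their ranges overlapped. let-7i-5p, with 28.9 ± 3.57 CPM, and let-7b-5p, with 17.7 ± 2.11 CPM, followed in control samples (SD, n = 3 per group). let-7b-5p and let-7d-5p, the latter with 11.3 ± 2.69 CPM in control (SD, n = 3), had overlapping ranges, although let-7b-5p had more counts in each of the 6 samples. The lowest were let-7a-5p, with 3.82 ± 0.420 CPM in the controls (SD, n = 3), and let-7c-5p, with 3.35, 2.36 and 3.29 CPM in the controls. Ranked by their mean share of the microRNA counts, let-7e-5p was number 56 of all microRNAs in the controls and number 55 with RUNX1, and let-7c-5p stood at 457 and 481. The most abundant microRNA was miR-21-5p in the controls and miR-10a-5p with RUNX1.

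**Figure D1:**
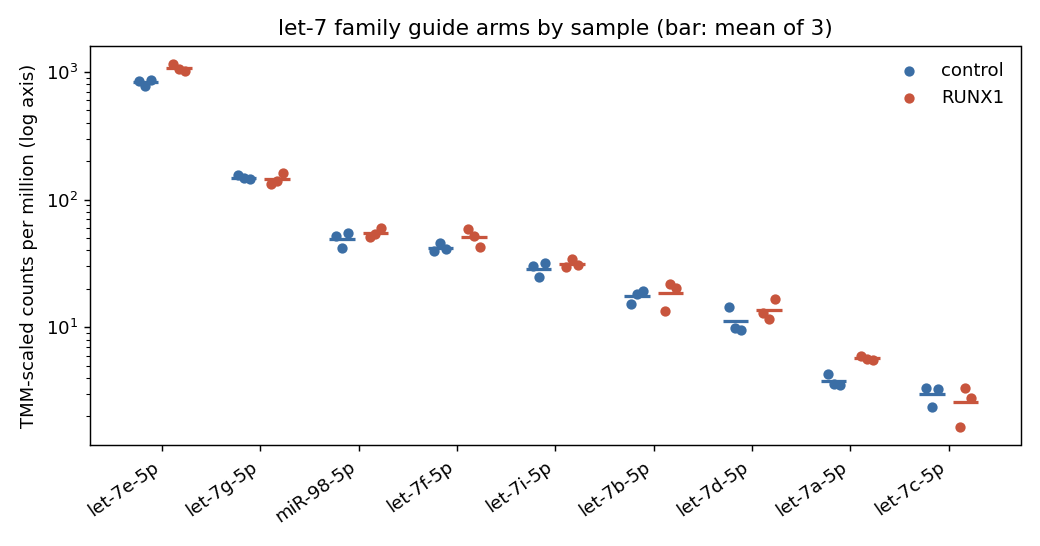
TMM-scaled CPM of the 9 let-7 family guide arms on a log axis, with 1 point per sample (control in blue, RUNX1 in red) and a bar at the mean of 3 samples. let-7e-5p lies between 772 and 1152 CPM and no other member above 162.3, and the groups are separated for let-7e-5p and let-7a-5p but not for the other members.

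With TMM scaling, 8 of the 9 arms were not called altered upon RUNX1 over-expression, in libraries in which most small RNAs were. An altered small RNA is one whose P-value was under 0.05 and whose log2 fold change was 0.5 or more in size. Across all 947 small RNAs tested, 57.6% were altered, and of the 9 let-7 arms 1 was, let-7a-5p. The groups of 3 did not overlap for 2 of the 9 arms, let-7a-5p and let-7e-5p, against 64.8% of all small RNAs tested. The median size of the log2 fold change was 0.22 over the 9 arms, 0.72 over the 598 microRNAs tested and 0.75 over all entries tested. With the direction kept, the median log2 fold change was 0.15 over the arms and -0.06 over all entries.

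**Figure D2:**
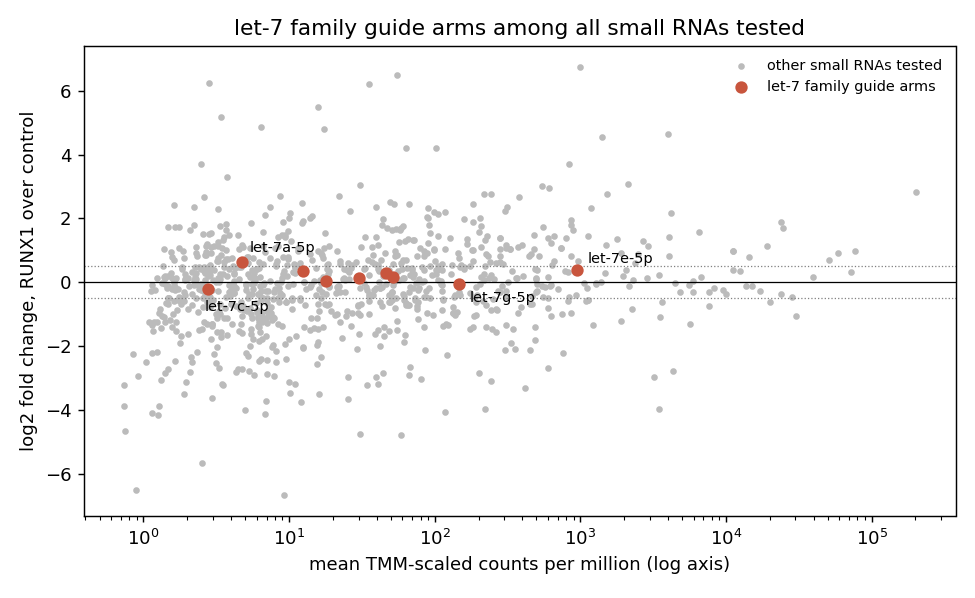
Log2 fold change of RUNX1 over control against the mean TMM-scaled CPM (log axis) for the 947 small RNAs tested, with the 9 let-7 family guide arms in red and dotted lines at 0.5 and -0.5. The arms span the range from -0.22 (let-7c-5p) to 0.62 (let-7a-5p) and only let-7a-5p lies outside the dotted lines.

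let-7a-5p, the member with the least certain origin, had 9, 29 and 27 counts in the controls and 69, 35 and 38 counts with RUNX1. After scaling this was 4.30, 3.60 and 3.56 CPM in the controls and 5.99, 5.60 and 5.55 CPM with RUNX1, so that the RUNX1 samples all lay above the control samples. The log2 fold change was 0.62 (standard error 0.22, 95% confidence interval 0.13 to 1.11, adjusted p = 0.0331, Benjamini-Hochberg adjustment over edgeR's quasi-likelihood P-values). It was not called without control replicate 2 (0.58) or without control replicate 3 (0.59), nor with scaling factors taken from microRNAs only (0.43) or with the replicate number as a block (0.59), and with scaling to library size alone it was -0.08. In settings that still called let-7a-5p, its adjusted p was above 0.05 with DESeq2 (0.0804) and, from edgeR, with no count filter (0.131). It was also above 0.05 without RUNX1 replicate 1 (0.0796) or RUNX1 replicate 2 (0.0601), both from edgeR. let-7a-5p differs by 1 base from let-7e-5p, which had 41456 counts in all, and passage of reads between them was not tested.

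With TMM scaling let-7e-5p rose by less, from 829.6 ± 51.4 CPM in control to 1075 ± 67.1 CPM with RUNX1 (n = 3 per group, SD), whereas scaling to library size alone turned its log2 fold change to -0.33. The lowest RUNX1 sample, with 1026 CPM, stood above the highest control sample, with 870 CPM. The log2 fold change of 0.37 (standard error 0.12, 95% confidence interval 0.10 to 0.65) passed the test (adjusted p = 0.0238, edgeR, Benjamini-Hochberg) but not the fold-change threshold. The adjusted p was above 0.05 with TMM on microRNAs only (log2 fold change 0.18, adjusted p = 0.191), with no count filter (0.0614), with the replicate block (0.0694), and without control replicate 1 (0.0603), control replicate 2 (0.128), control replicate 3 (0.0555) or RUNX1 replicate 1 (0.0601), all from edgeR. An adjusted p under 0.05 at any fold change was reached by 58.1% of all small RNAs tested and by these 2 of the 9 arms.

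The other 7 arms did not pass the test, with adjusted p from 0.153 to 0.920 (edgeR, Benjamini-Hochberg), and the samples of the groups overlapped for each. let-7g-5p had 148.5 ± 5.23 CPM in the controls and 144 ± 16.0 CPM with RUNX1 (n = 3 per group, SD), a log2 fold change of -0.04 with a 95% confidence interval from -0.34 to 0.26. miR-98-5p had 42.1 to 54.4 CPM in the controls and 54.8 ± 4.65 CPM (SD, n = 3) with RUNX1. Its hairpin lies in HUWE1, as MIRLET7F2 does, and its log2 fold change was 0.15 with an interval from -0.19 to 0.49. let-7i-5p had 0.12, with an interval from -0.23 to 0.48. These are the narrowest intervals of the 7.

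let-7f-5p had 39.2, 45.8 and 40.7 CPM in the controls and 59.1, 52.0 and 42.6 CPM with RUNX1, a log2 fold change of 0.29 with an interval from -0.08 to 0.65. RUNX1 replicate 3 lay within the control range, and without it the value was 0.49 and passed the test (adjusted p = 0.00154, edgeR, Benjamini-Hochberg), still under the fold-change threshold. The intervals of the less abundant arms were wider and held changes past the threshold in size. let-7d-5p had 0.35 with an interval from -0.17 to 0.87, and let-7b-5p 0.03 with an interval from -0.46 to 0.52. let-7c-5p had 7, 19 and 25 counts in the controls and 19, 21 and 19 counts with RUNX1, and its log2 fold change of -0.22 had an interval from -0.99 to 0.55. At these counts a change of 0.5 in either direction was not detectable in let-7c-5p.

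The direction of the family rested on the scaling. miR-10a-5p took 7.74% ± 0.753 of the microRNA counts in the controls and 30.2% ± 2.46 with RUNX1 (n = 3 per group, SD), and the mean TMM factor was 1.28 in the controls and 0.786 with RUNX1. As a plain share of microRNA counts, the 9 arms together took 0.183%, 0.171% and 0.176% in the controls and 0.120%, 0.110% and 0.132% with RUNX1, which is lower in each RUNX1 sample. With miR-10a-5p left out of the total, the shares were 0.197%, 0.186% and 0.192% in the controls and 0.174%, 0.162% and 0.182% with RUNX1, and the groups still did not overlap. As TMM-scaled CPM the sum went the other way, from 1134 ± 60.4 in control to 1397 ± 49.5 with RUNX1 (n = 3 per group, SD). No test was made on these sums.

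By member, 7 of the 9 log2 fold changes were positive with TMM and none with scaling to library size alone, a setting that called 5 arms (let-7b-5p, let-7c-5p, let-7g-5p, let-7i-5p and miR-98-5p) down-regulated. With that scaling the groups did not overlap for 7 of the 9 arms, lower with RUNX1 in each, against 74.4% of all small RNAs tested. That scaling called 67.7% of all small RNAs altered and moved their median log2 fold change to -0.76. With TMM factors from microRNAs only, 4 were positive and 5 negative, none was altered, 58.9% of all small RNAs were, and the median of all was -0.26. A change of scaling shifts all entries by nearly the same amount, so that the distance of a member from the median of all small RNAs is nearly fixed by construction and is given as a description. let-7a-5p lay 0.69 above that median with TMM and 0.68 with library size alone, let-7e-5p 0.44 above it in both, and let-7g-5p 0.02 and 0.03. let-7c-5p lay below it, at -0.16 with TMM and -0.15 with library size alone.

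**Figure D3:**
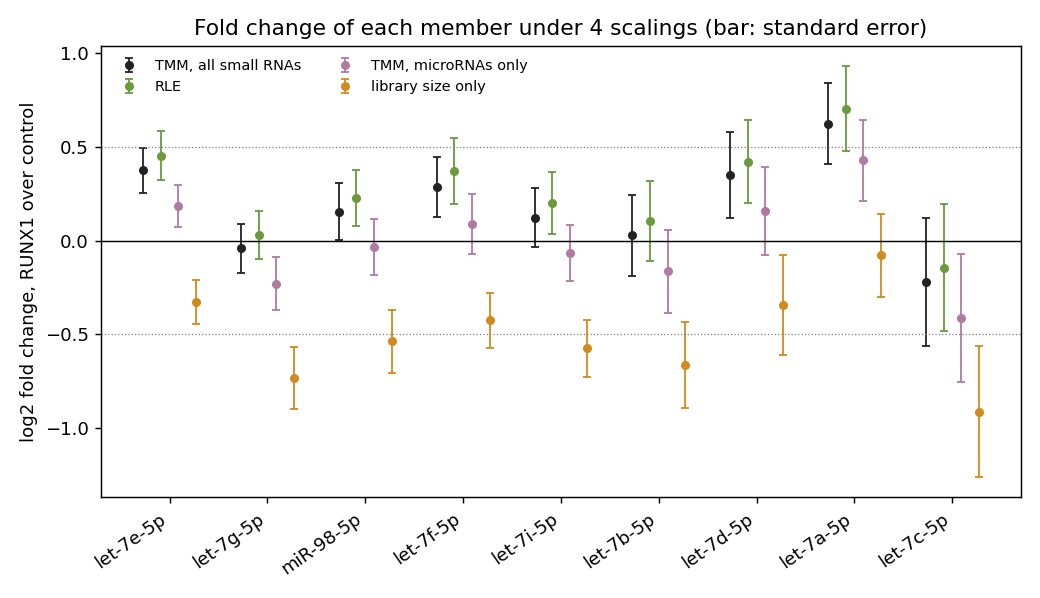
Log2 fold change of RUNX1 over control for the 9 let-7 family guide arms, ordered by level, under 4 scalings, with standard errors as bars and dotted lines at 0.5 and -0.5. The points of each member shift together, from 0.62 to -0.08 for let-7a-5p and from 0.37 to -0.33 for let-7e-5p between TMM on all small RNAs and library size alone.

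Ratios of counts within a sample need no scaling, and they were used to compare the members with let-7e-5p. The groups were separated for let-7g-5p. The log2 ratio of let-7g-5p to let-7e-5p was -2.45, -2.40 and -2.59 in the controls and -3.13, -2.92 and -2.66 with RUNX1, so that every RUNX1 sample had fewer let-7g-5p counts per let-7e-5p count than any control sample. The difference was -0.42 (exact permutation test, two-sided, p = 0.1, which is the lowest value possible with groups of 3, and 0.32 after adjustment over the 8 ratios). In an edgeR fit with the let-7e-5p count as the library size, a scaling added after the data were seen, the change of let-7g-5p was -0.41 (standard error 0.16, 95% confidence interval -0.77 to -0.05, adjusted p = 0.0487 with Benjamini-Hochberg adjustment), short of the fold-change threshold. That fit called 61.8% of all small RNAs altered and none of the 8 let-7 arms. RUNX1 replicate 3 was nearest to the control samples.

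let-7a-5p was the only member whose ratio to let-7e-5p was higher in all RUNX1 samples. Its log2 ratio was -7.62, -7.74 and -7.93 in the controls and -7.59, -7.55 and -7.53 with RUNX1, a difference of 0.21 (exact permutation test, two-sided, p = 0.1, 0.32 after adjustment). In the fit on let-7e-5p counts it was 0.23 with a 95% confidence interval from -0.26 to 0.73, so these data do not separate the response of let-7a-5p from that of let-7e-5p. The ratios of the other 6 members overlapped between groups. Across all other small RNAs tested, 69.0% had non-overlapping ratios to let-7e-5p, against 2 of the 8 let-7 ratios.

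As shares of the summed let-7 counts, let-7e-5p had 73.0%, 72.4% and 73.9% in the controls and 79.1%, 76.6% and 75.1% with RUNX1. let-7g-5p had 13.3%, 13.8% and 12.3% in the controls and 9.04%, 10.1% and 11.9% with RUNX1. Both shares were separated between groups, with a difference of 3.77 percentage points for let-7e-5p and of -2.77 percentage points for let-7g-5p (exact permutation test, two-sided, p = 0.1 for each, 0.3 after adjustment over 9 shares). The shares of one sample sum to 100%, so a higher share of let-7e-5p lowers the others by construction. The share of let-7a-5p went from 0.337% ± 0.0345 in control to 0.409% ± 0.00251 with RUNX1 (n = 3 per group, SD), also without overlap. The remaining 6 shares overlapped. With let-7e-5p left out of the total, the share of let-7g-5p overlapped as well (exact permutation test, two-sided, p = 0.2). It was 49.4%, 49.9% and 47.1% in the controls and 43.2%, 43.3% and 47.6% with RUNX1. The share of let-7a-5p stayed separated on that total. Shares of this kind have no counterpart over all small RNAs. By TMM-scaled CPM, the groups did not overlap for 64.8% of all small RNAs tested.

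**Figure D4:**
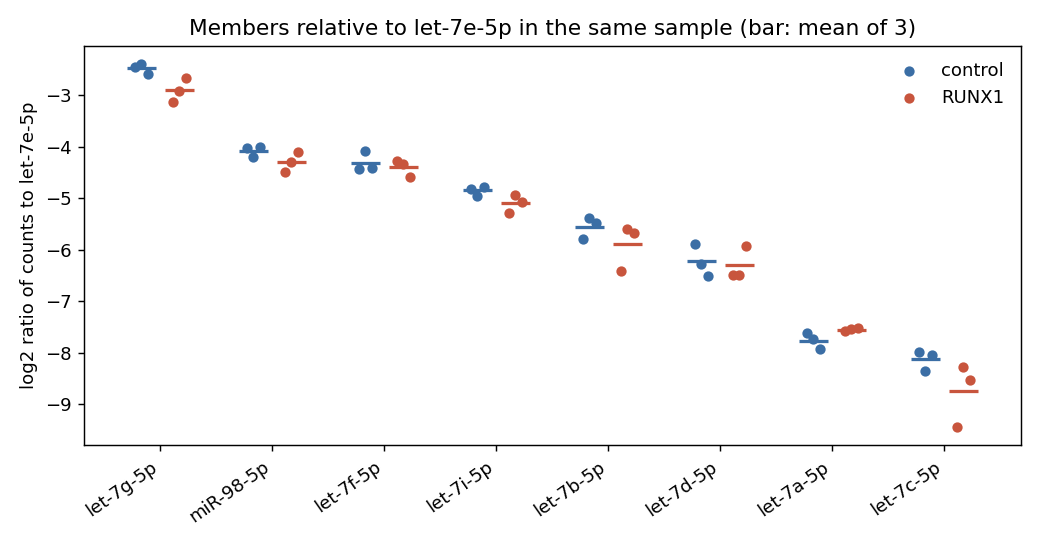
Log2 ratio of the counts of each of 8 let-7 family guide arms to those of let-7e-5p in the same sample, with 1 point per sample and a bar at the mean of 3. The groups are separated for let-7g-5p (lower with RUNX1, means -2.48 and -2.90) and for let-7a-5p (higher, means -7.77 and -7.56).

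The other arms of the same hairpins, which are usually degraded, were rare. Of 11 such 3p entries, 3 passed the count filter, and 1 of these was altered, let-7f-2-3p, which was down-regulated, as were 29.6% of all small RNAs tested. let-7a-2-3p and let-7c-3p had no counts in any library, which allows levels of up to 3 counts, or between 0.197 and 1.85 CPM of the library total, a limit that covers counting error only. The let-7f hairpins can be told apart by this arm. The MIRLET7F2 product let-7f-2-3p had 230 counts in all and the MIRLET7F1 product let-7f-1-3p 5 counts.

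let-7f-2-3p had 10.0, 6.45 and 7.51 CPM in the controls and 4.25, 4.64 and 3.21 CPM with RUNX1, which lay below all control samples. Its log2 fold change was -0.92 (standard error 0.25, 95% confidence interval -1.49 to -0.35, adjusted p = 0.0117, edgeR, Benjamini-Hochberg). let-7e-3p had 9.19 ± 0.449 CPM in the controls and 7.98 ± 1.06 CPM with RUNX1 (n = 3 per group, SD), and the groups overlapped. The log2 fold change was -0.18 (standard error 0.20). let-7d-3p, with 75 counts in all, had a value of -0.47 (standard error 0.31). Neither passed the test, with adjusted p of 0.444 and 0.224 (edgeR, Benjamini-Hochberg), while scaling to library size alone called both down-regulated (-0.89 and -1.17).

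Of the 4 arm ratios with counts of both arms in every sample, those of let-7e and let-7f were higher, in favour of the guide arm, in every RUNX1 sample than in any control, and those of let-7d and miR-98 overlapped. For each let-7e-3p count there were 88.6, 82.9 and 100.1 let-7e-5p counts in the controls and 126, 134 and 146 with RUNX1. The log2 ratio of the arms was 6.50 ± 0.138 in the controls and 7.08 ± 0.107 with RUNX1 (SD, n = 3 per group), a difference of 0.58 (exact permutation test, two-sided, p = 0.1, 0.2 after adjustment over the 4 ratios). let-7f-5p had 3.90, 7.10 and 5.42 counts for each let-7f-2-3p count in the controls and 13.9, 11.2 and 13.3 with RUNX1, a difference in the log2 ratio of 1.26 (same test, p = 0.1, 0.2 after adjustment), but reads of let-7f-5p can come from either hairpin. The log2 ratio of let-7d-5p to let-7d-3p, with 3 to 18 counts of the 3p arm, was 3.32, 2.15 and 2.08 in the controls and 3.21, 2.60 and 3.68 with RUNX1. For miR-98-5p to miR-98-3p, with 1 to 10 counts of the 3p arm, it was 6.75, 6.41 and 5.37 in the controls and 5.88, 6.06 and 6.10 with RUNX1, so that the mean was lower with RUNX1, by -0.16. Such separation was common. Among 92 microRNAs with at least 10 counts of both arms in every sample, 63.0% had arm ratios that did not overlap between groups, and in 45.7% of the 92 the more abundant arm was favoured in all RUNX1 samples.

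The hairpins lie at 8 places of the genome, some beside hairpins of other families. MIRLET7E (chromosome 19 of GRCh38, from 51692786 to 51692864, plus strand) lies in an intron of SPACA6, 104 bases from MIR99B and 389 bases from MIR125A, and the 3 are known to be made as one transcript. For miR-99b-5p the log2 fold change was -0.46 (standard error 0.30), with RUNX1 replicate 3 at 12205 CPM against 32101 and 26854 CPM in RUNX1 replicates 1 and 2. miR-125a-5p had -0.26 (standard error 0.13). Neither was altered with TMM scaling, and without RUNX1 replicate 3 the values were -0.06 and -0.075, but library size alone called both down-regulated (-1.20 and -0.97) and TMM factors from microRNAs only called miR-99b-5p so (-0.66). The 3p arms of the same hairpins differed, with 0.39 for miR-99b-3p, near the value of let-7e-5p, and -0.42 for miR-125a-3p (standard error 0.13). Both passed the test (adjusted p = 0.0247 and 0.0207, edgeR, Benjamini-Hochberg) but not the fold-change threshold. With no count filter neither passed (0.0797 and 0.352, same test). TMM factors from microRNAs only left miR-99b-3p at an adjusted p of 0.200 (same test). That setting (-0.62) and library size alone (-1.13) called miR-125a-3p down-regulated. Against 3 of these 4 arms, let-7e-5p was higher in every RUNX1 sample than in any control. The log2 ratio of let-7e-5p to miR-125a-5p was -3.64, -3.82 and -3.49 in the controls and -3.11, -3.04 and -2.88 with RUNX1, a difference of 0.64, and the difference was 0.80 for miR-125a-3p and 0.94 for miR-99b-5p (exact permutation test, two-sided, p = 0.1 for each, 0.125 after adjustment over 5 ratios of neighbours). Without RUNX1 replicate 3 the difference for miR-99b-5p was 0.55. The log2 ratio to miR-99b-3p overlapped between groups, with 3.68, 3.40 and 3.46 in the controls and 3.62, 3.41 and 3.43 with RUNX1, a difference of -0.03 (same exact test, p = 0.7). Non-overlapping ratios to let-7e-5p were found for 69.0% of small RNAs, as given above.

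MIR98 and MIRLET7F2 (chromosome X, from 53556223 to 53556341 and from 53557192 to 53557274, minus strand) lie 850 bases apart in introns of HUWE1, a gene for a ubiquitin ligase. The log2 ratio of miR-98-5p to let-7f-2-3p was 2.36, 2.70 and 2.86 in the controls and 3.58, 3.53 and 4.22 with RUNX1, a difference of 1.14 (exact permutation test, two-sided, p = 0.1), but the arms come from different sides of their hairpins. MIRLET7A1, MIRLET7F1 and MIRLET7D lie within the same stretch of chromosome 9, with 310 and 2400 bases between them, in introns of a lincRNA, and let-7d-5p is the only guide arm of the 3 that cannot come from another place. MIRLET7G is in an intron of WDR82 on chromosome 3 (from 52268278 to 52268361, minus strand) and MIRLET7I in an intron of a lincRNA on chromosome 12 (from 62603686 to 62603769, plus strand). MIRLET7A3 and MIRLET7B lie in exons of MIRLET7BHG on chromosome 22.

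**Figure D5:**
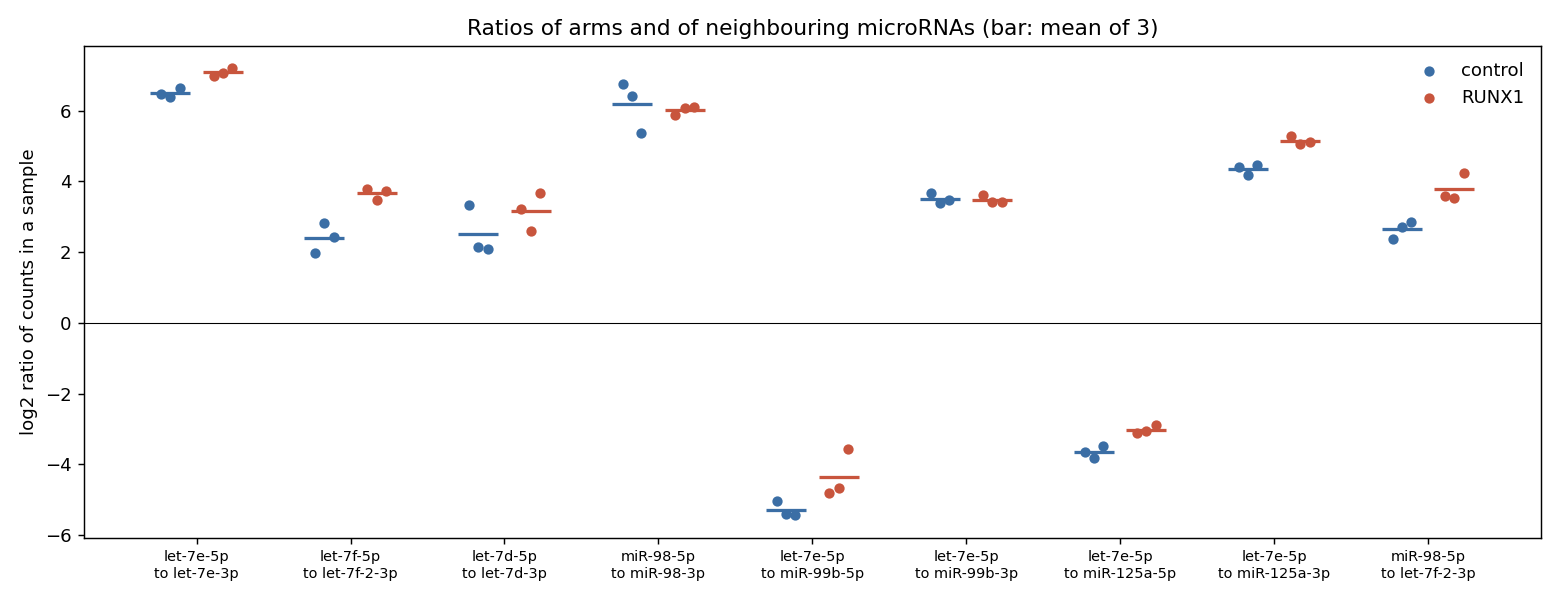
Log2 ratios of counts within a sample for guide and other arms (let-7e, let-7f, let-7d, miR-98) and for neighbouring microRNAs (let-7e-5p with both arms of miR-99b and miR-125a, miR-98-5p with let-7f-2-3p), with 1 point per sample and a bar at the mean of 3. The groups overlap for the arms of let-7d and miR-98 and for let-7e-5p to miR-99b-3p, the other 6 ratios are higher in the 3 RUNX1 samples, and let-7e-5p to miR-99b-5p in RUNX1 replicate 3 (-3.57) stands apart from replicates 1 and 2.

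Of 13 entries for microRNAs that share a cluster with let-7 hairpins (miR-99, miR-100, miR-125 and miR-4763 arms), 7 passed the count filter and 2 were altered, both down-regulated, against 29.6% of all small RNAs tested. These were miR-100-5p, a neighbour of MIRLET7A2, at -1.94 (log2, standard error 0.34), and miR-99a-5p, a neighbour of MIRLET7C, with -1.68 (standard error 0.25). miR-100-5p had 28, 115 and 131 counts in the controls and 64, 26 and 12 with RUNX1, against totals that were larger in the RUNX1 samples. let-7c-5p, 658 bases from MIR99A in MIR99AHG, had -0.22 with the interval given above, which does not reach the value of miR-99a-5p. The median log2 fold change of the 7 neighbours was -0.42, against -0.06 over all entries tested. The median of the 3 tested 3p arms was -0.47.

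Beyond the 9 arms, 2 human microRNAs in the RefSeq table have the same bases 2 to 8. Both are shorter than the 9 arms, and miR-4500 follows let-7g-5p and let-7i-5p well beyond the seed. Their sequences are shown with the seed in capitals.
miR-4458: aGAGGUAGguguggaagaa
miR-4500: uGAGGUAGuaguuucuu

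miR-4500 had no counts. miR-4458 had 4, 18 and 11 counts in the controls and 6, 3 and 12 with RUNX1, and its log2 fold change of -1.08 (standard error 0.51) did not pass the test (adjusted p = 0.0997, edgeR with Benjamini-Hochberg adjustment). It was called down-regulated without RUNX1 replicate 3 (-1.75), with library size alone (-1.76), with TMM on microRNAs only (-1.27) and with no count filter (-1.01). Their counts are small beside the 41456 counts of let-7e-5p, which held most of the counts with the let-7 seed in these libraries. How far a loss of multi-locus reads of let-7a-5p and let-7f-5p bears on this was not tested. The 5 microRNAs whose TMM-scaled profile over the 6 samples was most like the mean of the 9 arms were miR-548k (Pearson r = 0.939), miR-651-5p (0.906), miR-671-5p (0.895), miR-204-5p (0.888) and miR-148a-5p (0.884). They were taken from 304 microRNAs with a mean of at least 10 CPM, and the 6 points share the group difference and the scaling of the libraries.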

How the data were processed

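Small RNA libraries of 3 control and 3 RUNX1 samples were prepared by the authors with the TruSeq Small RNA kit from 1000 ng of total RNA, sequenced as single reads and counted with the OASIS platform at standard parameters. The submitters' processing notes name CASAVA 1.8.2 and the build hg19. The aligner and the treatment of multi-locus reads are not given in the sources used here. The deposited values are whole-number counts per small RNA without normalization, and 5 counter summary rows, all at 0, were left out. Library names differ by a letter between the groups, and any preparation this letter stands for cannot be told apart from the group.

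Counts were filtered with filterByExpr (minimum count 10, minimum total count 15), TMM-scaled, and fitted by glmQLFit and glmQLFTest of edgeR 4.0.16 (R 4.3.3), with the group as the only term. Standard errors were taken as the size of the log2 change over the square root of F. Ratios and shares were compared with exact permutation tests (scipy 1.17.1), two-sided, and sums over members had no test. P-values measure the spread between these transductions. Alternatives were DESeq2 1.42.0, RLE factors, library size, microRNA-based factors, 2 other filters, adjusted P, the replicate block and each replicate left out. Sequences and positions are from RefSeq (GRCh38.p14) and gene contexts from GENCODE 29, matched by name.

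The named entries are the 9 members, their 3p arms, cluster neighbours, microRNAs with the same seed, the 5 most alike, the most abundant of each group and cell markers. The members and lists were chosen with earlier results of these data known.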

Additional observations from a re-analysis of the deposited data

How the results depend on the processing

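The count of altered let-7 arms, 1 of 9 with TMM, was 5 (all down-regulated) with library size alone, 2 with no fold-change threshold, and 0 with TMM on microRNAs only, with at least 10 counts in every sample (let-7a-5p and let-7c-5p were then not tested), with the adjusted P and a log2 fold change of 1, with let-7e-5p as the scale (added after the data were seen, like the count with no fold-change threshold) and with the replicate block. Leaving out 1 replicate gave 0 to 1. The count over all small RNAs ranged from 364 to 761, and from 521 to 612 with a replicate left out. The replicate numbers did not pair the samples, with deviation correlations of -0.03, -0.09 and 0.02, and the block left let-7a-5p at 0.59.

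The change in the let-7 share of microRNA counts, -0.0559 percentage points, was -0.0186 without miR-10a-5p in the total and -0.0349 of all small RNA counts, and ranged from -0.0616 to -0.0506 with a replicate left out. Signs turned under library size alone for let-7a-5p (-0.078), let-7b-5p (-0.66), let-7d-5p (-0.34), let-7e-5p (-0.33), let-7f-5p (-0.43), let-7i-5p (-0.58), miR-98-5p (-0.54), miR-99b-3p (-0.30) and miR-125b-2-3p (-0.57). With TMM on microRNAs only they turned for let-7b-5p (-0.16), let-7i-5p (-0.067), miR-98-5p (-0.033) and miR-125b-2-3p (-0.076). let-7g-5p, near 0, became 0.031 with RLE factors, 0.033 with DESeq2 and 0.047 with no count filter. With a replicate left out, let-7b-5p ranged from -0.060 to 0.25, let-7c-5p from -0.41 to 0.10, let-7g-5p from -0.057 to 0.042, let-7e-3p from -0.27 to 0.0076 and miR-125b-2-3p from -0.039 to 0.53. Without let-7e-5p in the total, the share changes of let-7d-5p (0.573), let-7f-5p (2.23), let-7i-5p (0.279) and miR-98-5p (0.810 percentage points) turned positive. With a replicate left out, the share change of let-7d-5p ranged from -0.124 to 0.119 and that of let-7f-5p from -0.254 to 0.238. The arm ratio of miR-98, -0.16, became 0.0020 with 0.5 added to both arms and ranged from -0.57 to 0.13 with a replicate left out, and the ratio of let-7e-5p to miR-99b-3p then ranged from -0.096 to 0.054 (added after the data were seen). The cause was not tested in any of these cases. Of the erythroid calls, those of miR-144-5p and miR-486-5p were lost in some fits with a replicate left out, where they ranged from -0.78 to -0.40 and from -1.18 to -0.57. Low counts limit let-7a-5p, let-7c-5p, the 3p arms, miR-125b-2-3p and miR-4458.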
